A study of Gallus gallus with 10 samples.

Results

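The genes described here build the contacts between epithelial cells: cadherins, protocadherins, claudins, the alpha and delta catenins, tight junction scaffolds (TJP), occludin, desmosomal proteins, EPCAM and NCAM1. They were chosen by symbol, as every probe set on the chicken array whose annotated gene name is CDH, CLDN, TJP, DSC or DSG followed by a digit, starts with PCDH, CTNNA or CTNND, or is OCLN, DSP, JUP, EPCAM or NCAM1. This gave 144 probe sets, of which 142 carry 1 symbol, for 64 of the 13009 named genes on the array. The brightest probe set on average stood for each gene. All 64 symbols occur in the RefSeq chicken gene table (assembly GRCg7b).

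Classical cadherins hold like cells together by binding the same cadherin on the neighbouring cell, and beta-, alpha- and delta-catenins tie or stabilise them at the actin cytoskeleton. Type I cadherins such as E-cadherin (CDH1) and N-cadherin (CDH2) mark epithelia and neural tissue, and in the early embryo the neural plate exchanges CDH1 for CDH2 as it separates from the ectoderm that keeps CDH1. Type II cadherins are often expressed in mesenchyme, neural crest and regions of the brain. Protocadherins signal in cell sorting and movement, claudins and occludin seal tight junctions, and desmosomes anchor intermediate filaments.

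The arrays hold 4 cell populations of the preplacodal region, the band of ectoderm around the anterior neural plate from which sense organs and cranial ganglia form. Anterior placode progenitors (aPPs) and posterior ones (pPPs) were each measured on 3 arrays, and after culture on 2 arrays each. All tissue came from HH5-7 chick embryos and was cut by hand, and the labels of the uncultured samples name HH6. The labels give no strain, genotype or number of embryos. Cultured tissue was kept as explants in rat tail collagen for 5 hr. No array holds tissue left in the embryo for that time, so that culture and added age cannot be told apart. Nothing in the labels says that the numbered sets are separate pools of embryos, and p-values then measure only the spread between these samples.

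The values are MAS5 signals in arbitrary units, normalized here to a common distribution over the 10 arrays. A gene was tested when MAS5 called it Present on at least 2 of the 8 arrays whose calls can be assigned. The other 2 arrays are set 2 of both cultured groups. Among the columns of the deposited annotated table, 2 share the name of cultured aPP set 2, and the signals in 1 of them are identical to the sample whose label reads cultured pPP set 2. That array, called the conflicting array in what follows, was used as its sample label says, and each test of a junction gene called in cultured pPPs is given with and without it. Per array, 44.7 to 50.2% of probe sets were Present. Log2 differences were taken after adding 16 to each signal, which makes the change of a dim gene look smaller than it is. Genes of the preplacodal list summed to between 2248 and 4101 on the uncultured arrays, and all 6 had a Present call. DLX5 carried most of this sum, at 1622 to 2917, whereas EYA1 and FOXI1 reached at most 9.39 and 3.84 on these arrays. The 13 endothelial and blood genes summed to between 136 and 232. EGFL7, PECAM1 and SOX7 were Present on all 8 arrays with calls, whereas CDH5, HBZ and LMO2 had no Present call. Of the 7 tested, EGFL7 was called higher in aPPs than in pPPs and none lower. Mesoderm genes were measured in every group, at a summed signal of 1447 to 1985 in aPPs and 683 to 1303 in pPPs. Of these 16 genes 4, among them TBX6, had no Present call. Without FOXC2 the other 15 summed to 410 to 789 in aPPs and 523 to 868 in pPPs, with overlap. In such tissue, fewer cells of a type and less RNA per cell cannot be told apart.

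Of the 64 genes, 41 were tested and 20 were Present on all 8 arrays with calls. All 4 type I cadherins, all 5 catenins and all 3 of TJP1, TJP3 and OCLN were tested. Detection was sparser among type II cadherins, with 7 of 12 tested, among protocadherins, with 9 of 15, and among claudins, with 7 of 15. A further 17 genes had no Present call, and the 6 genes with 1 call were not tested. The highest signals of these 23 genes on any array lay between 2.24 for PCDH7 and 14.8 for PCDH8.

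**Figure D1:**
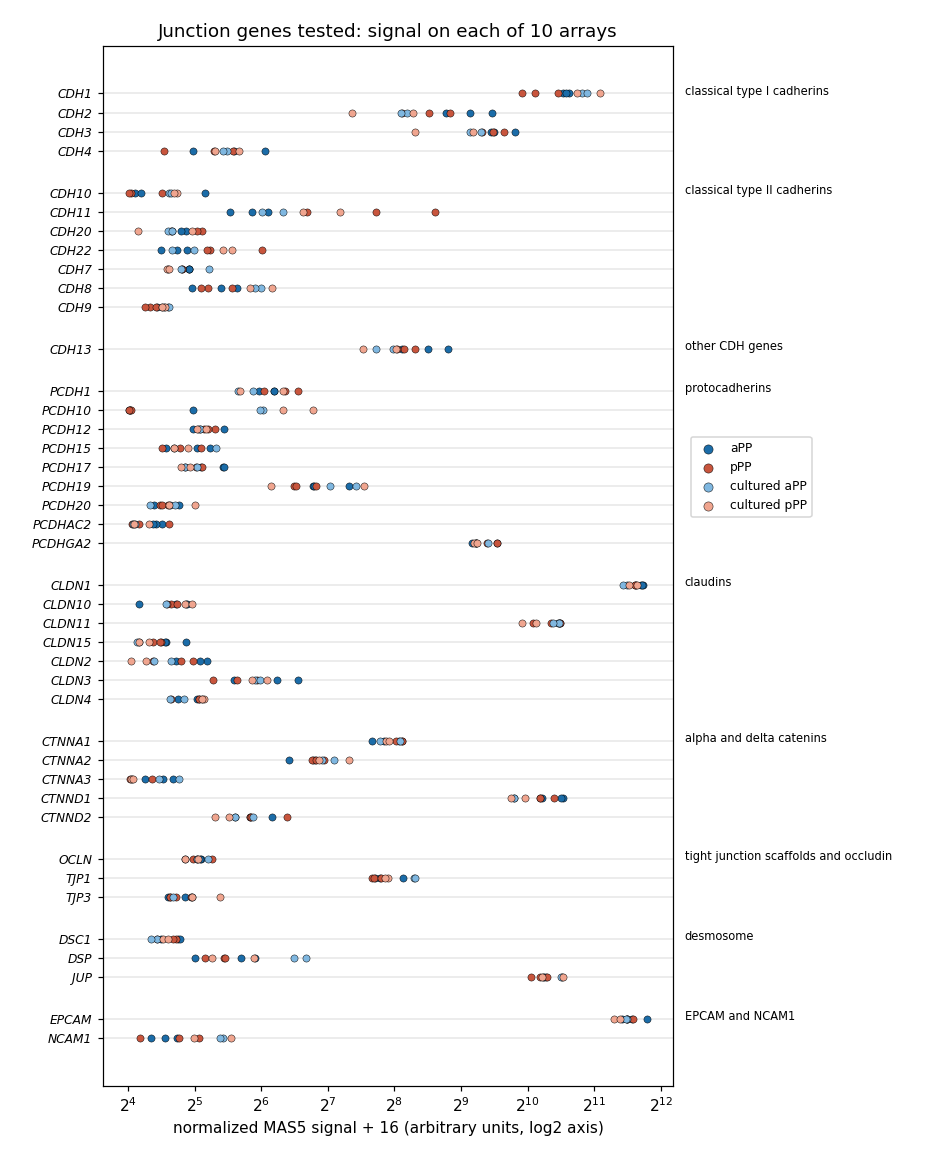
Each row is 1 of the 41 tested junction genes and each point 1 array. The x axis gives the normalized MAS5 signal plus 16 on a log2 scale, and colours give the 4 groups. Signals of different probe sets cannot be compared with each other, only the points within a row. Rows such as CLDN1 and EPCAM form tight clusters, whereas CDH11 and PCDH10 spread over several doublings.

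EPCAM, an adhesion molecule of epithelial cells, had a signal of 2733, 3029 and 3543 in aPPs and of 2880, 2854 and 3044 in pPPs. It read 2866 and 2823 in cultured aPPs, and 2494 and 2659 in cultured pPPs. The groups overlapped except that both cultured pPP arrays lay below every other array. CLDN1, a sealing claudin, read 3405, 3319 and 3342 in aPPs, 3112, 3133 and 3123 in pPPs, 2880 and 2752 in cultured aPPs and 2913 and 3177 in cultured pPPs. Neither gene passed the test in any comparison. JUP, the plakoglobin gene shared by desmosomes and adherens junctions, lay between 1045 and 1466 over the 10 arrays.

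Several other genes had low signals or few or no Present calls. VE-cadherin (CDH5), the cadherin of endothelium, reached at most 9.68 and was never called Present. CDH6, known from chick premigratory neural crest, was 0.21 to 2.15 on the uncultured arrays and in cultured aPPs, and 8.23 and 5.31 in cultured pPPs, where the 1 array with a call was Present. CDH7, known from migrating crest, read 14.1, 14.3 and 14.2 in aPPs, above all pPP arrays, which lay between 8.33 and 12.2, a difference of 0.17 log2 that did not pass (adjusted p = 0.876). CDH20 lay between 1.71 and 18.7. Its cultured aPP arrays, at 8.34 and 9.33, were below the aPP arrays, the lowest of which had 9.39. PCDH8, a protocadherin of paraxial mesoderm, was Present on 1 pPP array only. The endothelial claudin CLDN5 was Present on 1 aPP array.

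The comparison of aPPs with pPPs asks which transcripts differ along the length of the preplacodal region. Among the junction genes CDH11 alone passed the test, and it was lower in aPPs. That is 1 of 41, where 1.89% of all 21591 tested probe sets passed (1.18% as higher and 0.713% as lower), so the share is near the background. The median difference of the 41 genes was 0.10 log2, against -0.02 for all probe sets, and 37 of 41 lay within 0.5 log2 of 0.

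CDH11 encodes a type II cadherin known from mesenchyme and bone-forming cells. Its signal was 41.9, 52.6 and 30.4 in aPPs and 194, 374 and 86.7 in pPPs. Cultured aPPs had 64.6 and 48.5, and cultured pPPs 83.1 and 130.0. Every pPP array lay above every aPP array, and pPP set 2 was highest of all. The difference, aPP minus pPP, was -1.84 log2 (SE 0.35; 95% interval -2.58 to -1.10; limma, adjusted p = 0.00992), or 3.58-fold lower in aPPs. Without pPP set 2 it was -1.37 (adjusted p = 0.0459), and without aPP set 3 it was -1.69 and no longer called (adjusted p = 0.0625). A second probe set of the gene gave -1.05 (adjusted p = 0.0584).

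The same 3 pPP arrays had the same order for ZEB2, which encodes a repressor of CDH1 known from the neural plate. ZEB2 read 116, 358 and 90.1 in pPPs and 2.55, 5.74 and 11.9 in aPPs, and it was lower in aPPs by -2.95 log2 (adjusted p = 0.000242). The 7 neural plate genes, ZEB2 among them, summed to 1373, 1757 and 1405 in pPPs and to 1050, 1074 and 1214 in aPPs. All 7 had a Present call, SOX2 on 1 array only. GMNN, the brightest of the 7, read 871, 903 and 933 in pPPs and 711, 714 and 863 in aPPs. The 10 neural crest genes summed to 543 to 584 in pPPs and to 351 to 438 in aPPs. The part of these cell types in the CDH11 difference was not tested. CDH22, a type II cadherin named here after its values were seen, showed the same array order, with 21.6, 48.3 and 20.2 in pPPs and 10.6, 6.50 and 13.5 in aPPs. No aPP array was Present for CDH22. The groups did not overlap, but its difference of -0.77 log2 did not pass (adjusted p = 0.103).

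No type I cadherin passed between aPPs and pPPs. CDH1 read 1458, 1561 and 1507 in aPPs and 1391, 953 and 1093 in pPPs. All aPP arrays were higher, by 0.41 log2 (95% interval 0.14 to 0.68; adjusted p = 0.147), and the adjusted p was 0.0283 without pPP set 1. CDH2 read 695, 424 and 545 in aPPs and 440, 350 and 261 in pPPs, with a difference of 0.64 log2 (adjusted p = 0.29). The groups overlapped, but within each of the 3 numbered sets the aPP array was the higher one, and with the set as a block the adjusted p was 0.247. CDH4, the R-cadherin gene, was dim, between 7.23 and 50.4 on the uncultured arrays. CLDN3, a sealing claudin of epithelia, read 78.0, 32.3 and 59.8 in aPPs and 45.3, 22.7 and 33.7 in pPPs, and its difference of 0.51 log2 did not pass (adjusted p = 0.489). It too was higher in aPPs in all 3 sets (adjusted p = 0.30 with the block). Of 10 tested mesendoderm and endoderm genes, HHEX, SOX17 and SST1 were called higher in aPPs and FRZB lower. HHEX read 926, 222 and 1391 in aPPs, lowest in set 2, as CDH2 and CLDN3 were. All 14 genes of that list summed to 3536 to 5182 in aPPs and 4027 to 4519 in pPPs. The part of this tissue in the differences of CDH2 and CLDN3 was not tested. In all, 5 of 41 genes were higher in aPPs with no overlap (6.83% of all probe sets) and 2 were lower (7.04%).

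**Figure D2:**
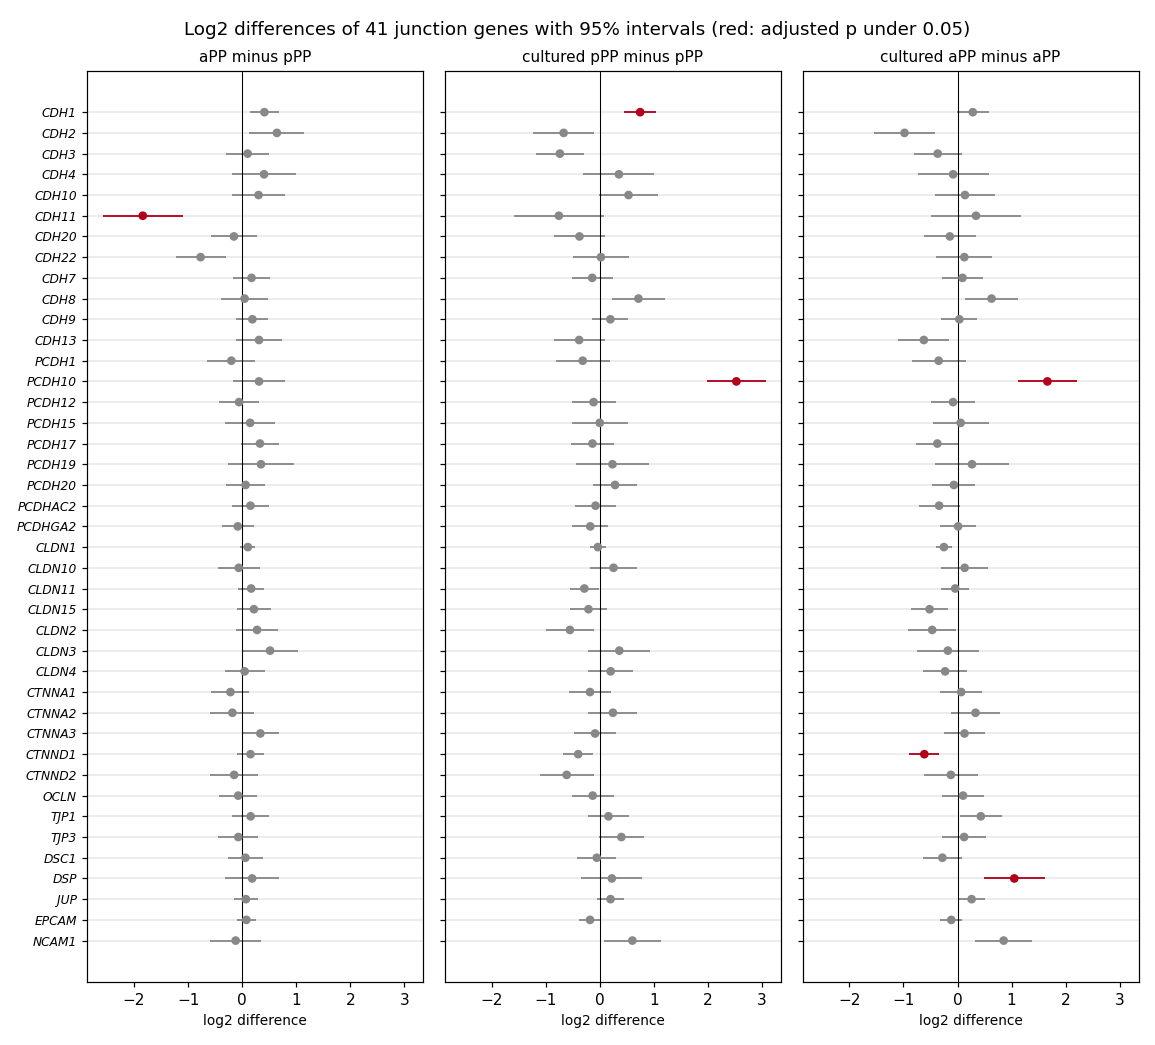
Points give the log2 difference of each tested junction gene, aPP minus pPP on the left, cultured pPP minus pPP in the middle and cultured aPP minus aPP on the right, and bars the 95% interval from limma. Genes called at an adjusted p under 0.05 are red: CDH11 on the left, CDH1 and PCDH10 in the middle, and PCDH10, CTNND1 and DSP on the right.

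Cultured pPPs were set against pPPs, a comparison that asks what changes once the tissue is removed from its neighbours. With every array included, CDH1 and PCDH10 were called, both higher in culture. That is 2 of 41, where 3.93% of all probe sets passed (2.24% as higher and 1.7% as lower). The median of the 41 genes was -0.06 log2, against -0.01 for all. When the conflicting array was left out, set 1 alone stood for cultured pPPs, and CDH2 and CDH3 were lower, at -1.13 and -1.17 log2.

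PCDH10 encodes a delta protocadherin that regulates actin and cell movement. Its signal was 0.14, 0.38 and 15.4 in aPPs and 0.34, 0.54 and 0.13 in pPPs, and it was not called Present on any of these 6 arrays. It rose to 93.4 and 64.7 in cultured pPPs and to 49.0 and 47.2 in cultured aPPs, and both cultured arrays with a call were Present. Every cultured array stood above every uncultured one. With uncultured signals raised to a limit for their array, PCDH10 was 4.96-fold higher in cultured pPPs and 2.84-fold higher in cultured aPPs. The limit on each array was the lowest signal called Present there, or the probe set's own signal where higher. These limits lay between 2.63 and 3.53, and for set 1 of each group, whose calls carry no set number, the highest limit of the group was taken. Calls are made for each probe set, and CDX2 read up to 63.9 in aPPs with no Present call. These folds are therefore not lower bounds. The fitted differences were 2.52 log2 in pPPs (SE 0.25; adjusted p = 6.44e-05) and 1.66 in aPPs (SE 0.25; adjusted p = 0.00158). PCDH10 met the filter for testing only through its Present calls in cultured tissue, where it was high, so these p-values are not independent of that filter. With the conflicting array left out, the first was 2.74 (adjusted p = 0.000742).

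CDH1 read 2149 and 1691 in cultured pPPs, against 1391, 953 and 1093 in pPPs. Both cultured arrays lay above all pPP arrays. The rise was 0.74 log2 (SE 0.14; 95% interval 0.45 to 1.04; adjusted p = 0.00735), or 1.68-fold. It was 0.92 without the conflicting array (adjusted p = 0.00911), and without set 1 of cultured pPPs it was 0.57 and not called (adjusted p = 0.171). In cultured aPPs CDH1 read 1785 and 1890, above the 3 aPP arrays, but the difference of 0.28 did not pass (95% interval -0.02 to 0.58; adjusted p = 0.333). The 2 responses differed by 0.46 log2, which did not pass (95% interval 0.04 to 0.89; adjusted p = 0.778).

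**Figure D3:**
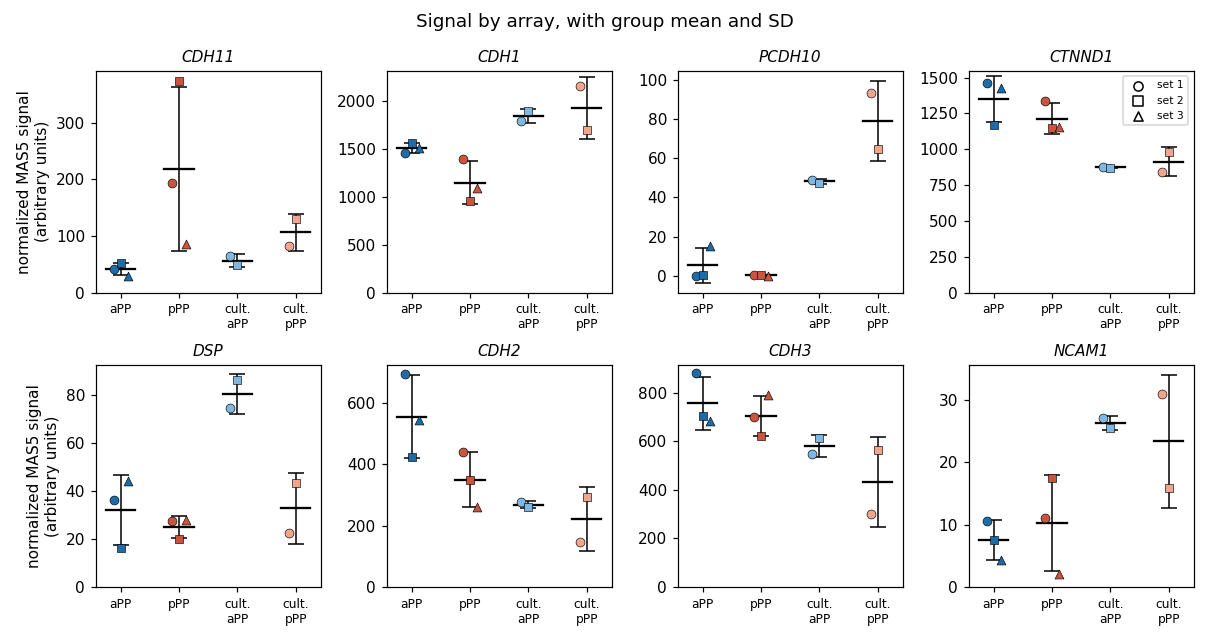
Each panel shows 1 gene, with the normalized MAS5 signal on the y axis, the 4 groups on the x axis, 1 point per array with its shape giving the set, and the group mean with its SD. CDH11 is highest in pPPs, PCDH10 is near 0 before culture, and CTNND1 is lower on all 4 cultured arrays than on all 6 uncultured ones. DSP separates the 2 cultured aPP arrays from the other 8.

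CDH2 and CDH3, classical type I cadherins, were lower in cultured tissue. With every array included, their brightest probe sets did not pass the test. CDH2 read 148 and 294 in cultured pPPs against 440, 350 and 261 in pPPs, and 276 and 259 in cultured aPPs against 695, 424 and 545 in aPPs. The pPP groups overlapped through set 2 of the cultured pPPs, while the aPP groups did not overlap. The differences were -0.67 log2 in pPPs (adjusted p = 0.191) and -0.98 in aPPs (95% interval -1.55 to -0.41; adjusted p = 0.0548). CDH3 read 301 and 564 in cultured pPPs, below the 699, 622 and 789 of pPPs, at -0.74 log2 (adjusted p = 0.0634). In cultured aPPs it read 548 and 612, below the 882, 703 and 683 of aPPs, at -0.37 (adjusted p = 0.409). With the conflicting array left out, set 1 alone stood for cultured pPPs, and the differences were -1.13 log2 for CDH2 and -1.17 for CDH3. With set 2 alone CDH3 was at -0.30, and the CDH2 signal of that array lay within the range of the pPP arrays. A second probe set of CDH2 gave -0.94 in aPPs (adjusted p = 0.0535), close to the first, but 0.16 in pPPs. That of CDH3 gave -0.31 in pPPs and -0.86 in aPPs, the last with an adjusted p of 0.0109.

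The ratio of CDH1 to CDH2 was taken within each array, from the normalized signals with the offset of 16. On the log2 scale and relative to the pPP mean it was -0.62, 0.16 and -0.24 in aPPs and -0.05, -0.27 and 0.32 in pPPs. It was 0.95 and 1.11 in cultured aPPs, and 2.05 and 0.78 in cultured pPPs. All 4 cultured arrays lay above all 6 uncultured arrays. The mean ratio was 2.67-fold higher in cultured pPPs than in pPPs and 2.40-fold higher in cultured aPPs than in aPPs, and each exact two-sided permutation test gave p = 0.1, the smallest that 3 arrays against 2 allow. The ratio of CDH1 to CDH3 was 2.80-fold higher in cultured pPPs and 1.57-fold higher in cultured aPPs, with the same p. Without normalization the CDH1 to CDH2 ratio was 2.95-fold and 2.57-fold higher, and the CDH1 to CDH3 ratio 3.08-fold and 1.65-fold. Without the conflicting array, set 1 alone stood for cultured pPPs, and the ratios were 4.13-fold higher for CDH2 and 4.26-fold for CDH3, with a smallest possible p of 0.25. All these ratios used the brightest probe set of each gene. The second probe set of CDH2 changed by 0.16 log2 in cultured pPPs, where the first changed by -0.67, and no ratio was taken with it. In cultured aPPs the 2 probe sets of CDH2 changed by -0.94 and -0.98. The ratios show unequal change of 2 genes and not which of them moved.

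**Figure D4:**
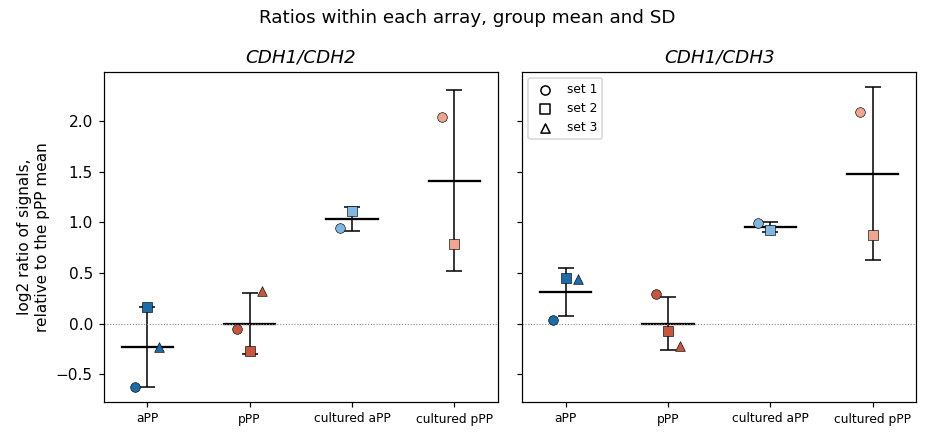
The y axis gives the log2 ratio of 2 signals on the same array, relative to the mean of pPPs, for CDH1 over CDH2 on the left and CDH1 over CDH3 on the right. Points are arrays, shaped by set, and lines with bars are the group mean and SD. The 4 cultured arrays lie above the uncultured arrays in both panels, with a wide gap between the 2 cultured pPP arrays at 2.05 and 0.78 on the left.

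Over the 10 arrays, the genes whose log2 signals followed CDH1 most closely were PCDH10 (Pearson r = 0.80), CDH8 (0.70) and CDH9 (0.70). Those closest to CDH2 were CTNND1 (0.89), CDH3 (0.80) and CLDN1 (0.78). These 10 arrays fall into 4 groups, so that the correlations carry the group differences already given. CDH8, a type II cadherin, read 33.5, 26.0 and 15.2 in aPPs and 48.2 and 44.2 after culture, and 31.4, 20.6 and 18.1 in pPPs and 40.9 and 55.8 after culture. Its cultured arrays lay above the uncultured ones, but neither difference passed (0.63 and 0.71 log2; adjusted p = 0.168 and 0.105). Without the conflicting array the latter was 0.54 (adjusted p = 0.322), and a second probe set gave the opposite sign.

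Cultured aPPs were set against aPPs in the same way, and 3 of 41 junction genes were called, where 3.71% of all probe sets passed (2.1% as higher and 1.61% as lower). PCDH10 and DSP were higher and CTNND1 was lower. The median of the 41 genes was 0.01 log2, against 0.00 for all.

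CTNND1 encodes p120-catenin, which keeps classical cadherins at the cell surface. Its signal was 1460, 1169 and 1429 in aPPs and 874 and 873 in cultured aPPs. It read 1336, 1148 and 1152 in pPPs and 844 and 984 in cultured pPPs. All 4 cultured arrays lay below all 6 uncultured ones. The difference was -0.61 log2 in aPPs (SE 0.13; 95% interval -0.89 to -0.34; adjusted p = 0.0145) and -0.40 in pPPs, which did not pass (adjusted p = 0.104), nor without the conflicting array (-0.51; adjusted p = 0.0818). The call in aPPs was lost without aPP set 1 (-0.56; adjusted p = 0.0509) and without either cultured aPP array. A dim second probe set, at a mean of 27.9 over the arrays, gave 0.23.

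DSP encodes desmoplakin, which links desmosomes to intermediate filaments. Its signal was 36.1, 16.1 and 43.9 in aPPs and 27.6, 19.8 and 27.8 in pPPs, and 74.3 and 86.2 in cultured aPPs and 22.4 and 43.2 in cultured pPPs. Both cultured aPP arrays were above all others, and the other groups overlapped. The rise in aPPs was 1.05 log2 (SE 0.27; adjusted p = 0.0388), or 2.07-fold. It was lost without aPP set 2 (0.78; adjusted p = 0.116) and without either cultured aPP array, and 2 further probe sets gave 0.55 and 0.62 without passing. The difference between the responses was -0.83 log2, pPP minus aPP, and did not pass (adjusted p = 0.799).

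NCAM1, a neural adhesion molecule, read 27.1 and 25.5 in cultured aPPs, above the 10.7, 7.59 and 4.35 of aPPs, with a difference of 0.85 log2 (adjusted p = 0.0685). In pPPs it read 11.1, 17.5 and 2.15, and 30.9 and 15.8 after culture (0.60 log2; adjusted p = 0.20), with overlapping groups. Without the conflicting array the pPP difference was 0.88 (adjusted p = 0.117). NCAM1 had no Present call on the uncultured arrays, so it entered the test only through its calls in cultured tissue, where it was higher. Its aPP signals lay above the lowest Present signals of 2.63 to 3.53. The 1.81-fold rise in cultured aPPs is therefore the fitted difference, which did not pass, and no lower bound. The alpha-catenin gene CTNNA1 lay between 187 and 262 on all 10 arrays and was not called in any comparison. TJP1, the ZO-1 scaffold of tight junctions, read 299 and 301 in cultured aPPs against 204, 194 and 264 in aPPs (0.43 log2; adjusted p = 0.243), and 223 and 215 in cultured pPPs against 187, 191 and 206. A dim second probe set gave -0.07 in aPPs and -0.19 in pPPs. OCLN, Present on 2 arrays, lay between 12.9 and 22.3.

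No other protocadherin or claudin passed. PCDH19, which in other vertebrates adheres together with N-cadherin, read 93.2, 143 and 95.1 in aPPs and 155 and 115 in cultured aPPs. It had 73.9, 97.6 and 75.8 in pPPs and 170.3 and 55.0 in cultured pPPs, the widest gap being within that last group, and no difference passed. PCDH1, an epithelial protocadherin, lay between 34.5 and 78.1. PCDHGA2, from a cluster whose genes share their last exons, so that its probe set may read several of them, lay between 556 and 730. CLDN4 and CLDN10 were under 20 on every array. In cultured aPPs CLDN1 lay below all aPP arrays, at -0.25 log2, without passing (adjusted p = 0.066).

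Without regard to the test, 10 of 41 genes were higher in cultured pPPs than in pPPs with no overlap (17.2% of all probe sets) and 8 lower (16.4%). With set 1 alone for cultured pPPs the counts were 16 (32.5%) and 17 (32.4%). In cultured aPPs 8 were higher (18.4%) and 12 lower (17.7%). In both cultures CDH1, CDH8, PCDH10 and TJP1 were higher and CDH3, CDH13, CLDN2, CLDN15 and CTNND1 lower, and no gene went opposite ways with no overlap. CDH13, CLDN2 and CLDN15 are named after their values were seen.

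Between the 2 cultured groups no junction gene passed (0.232% of all probe sets did by limma), and 5 had an unadjusted p under 0.05, as did 9.1% of all: CDH22, CLDN11, CTNNA3, DSP and TJP1. The count was also 0 without the conflicting array (0.635% of all). The difference between the 2 culture responses likewise gave 0 calls of 41 (0.0139% of all), and 3 genes, CDH1, DSP and PCDH10, had an unadjusted p under 0.05, against 6.18% of all probe sets. For PCDH10 the responses differed by 0.86 log2 (95% interval 0.10 to 1.63; adjusted p = 0.766). Leaving out the conflicting array gave a count of 0 too (0.25% of all).

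Summed signals of marker genes of other tissues also differed with culture. The 10 neural crest genes, all with a Present call, summed to 1301 and 1767 in cultured pPPs against 543 to 584 in pPPs, and to 724 and 752 in cultured aPPs against 351 to 438 in aPPs. Of these, 5 were called higher in cultured pPPs and 3 in cultured aPPs, and none lower. From pPPs to cultured pPPs the mean of TFAP2B went from 38.9 to 491, that of SOX10 from 17.1 to 18.8 and that of FOXD3 from 32.5 to 32.1. The 8 surface ectoderm genes, of which GATA2 had no Present call, summed to 1740 and 1898 in cultured pPPs against 462 to 1004 in pPPs. In aPPs they summed to 2392 to 2959, and to 2224 and 2316 after culture. Of the 7 tested, KRT7 and TFAP2C were called higher in cultured pPPs and BMP4 lower. In cultured aPPs TFAP2C was called higher, and BMP4 and EPAS1 lower. The mesoderm genes summed to 1572 and 1677 in cultured pPPs and to 2019 and 2411 in cultured aPPs. FOXC2 carried these sums: without it the other 15 genes had 640 and 826 in cultured pPPs against 523 to 868 in pPPs, and 311 and 503 in cultured aPPs against 410 to 789 in aPPs. In cultured aPPs the retinoic acid-degrading enzyme CYP26C1 was the only mesoderm gene called, and it fell from a mean of 236 to 37.2. Of 7 tested endothelial and blood genes, FLT1 alone was called in culture, as higher in both tissues. Its mean went from 5.04 to 23.1 in pPPs and from 10.1 to 49.8 in aPPs.

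Other lists had lower sums in culture, with no overlap in either tissue when all their genes were counted. The neural plate genes summed to 1023 and 1093 in cultured pPPs, below the range given for pPPs. In cultured aPPs they summed to 720 and 854 against 1050 to 1214 in aPPs. With the conflicting array included, none of the 6 tested was called in either tissue. Without it, set 1 alone stood for cultured pPPs, and SOX3 was at -1.03 log2 against pPPs. The 14 mesendoderm and endoderm genes, of which CHRD and FOXA1 had no Present call, summed to 2713 and 2831 in cultured pPPs against 4027 to 4519 in pPPs. In cultured aPPs they summed to 3095 and 3443 against 3536 to 5182 in aPPs. Without OTX2 the aPP groups overlapped, with 2251 and 2508 in cultured aPPs against 2302 to 4267 in aPPs. The pPP groups did not, with 1928 and 2284 in cultured pPPs against 2608 to 3066 in pPPs. FRZB carried most of these last sums, at 1514 and 1906 in cultured pPPs and 2317, 2689 and 2263 in pPPs. They therefore show the fall of FRZB and not of the list. Of the 10 tested genes of this list, FRZB and OTX2 fell in cultured pPPs and none was called in cultured aPPs. The part of these tissues in the changes of CDH1, CDH2, CDH3, PCDH10, CTNND1 and DSP was not tested.

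Genes that act with the junction genes were read from 7 lists. Of 12 tested adherens junction partners, SHROOM3, an actin-binding protein of apical constriction, was the only one called in any comparison. It read 137, 172 and 128 in aPPs and 48.2 and 60.6 in cultured aPPs, a fall of -1.19 log2 (adjusted p = 0.00374), with no overlap. CTNNB1, the beta-catenin gene, lay between 2222 and 2792 on all arrays and was not called. None of 23 tested tight junction and polarity genes, and none of 8 tested members of the wider cadherin superfamily (FAT, DCHS, CELSR and the like), was called by limma in any comparison. The polarity scaffold MAGI1 was called lower in cultured pPPs when the conflicting array was left out (-0.79 log2; adjusted p = 0.041).

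Of 8 tested desmosome and intermediate filament partners, 4 rose and 1 fell in cultured pPPs. The plakin genes PPL and EVPL, whose proteins link desmosomes to keratins, rose by 1.14 and 1.00 log2 (adjusted p = 0.0129 and 0.0383), as did the keratin KRT7 and nestin (NES). PPL read 41.2, 55.4 and 67.9 in pPPs and 145 and 132 in cultured pPPs. The plakophilin PKP2 read 795, 647 and 752 in pPPs and 368 and 392 in cultured pPPs, a fall of -0.91 log2 (adjusted p = 0.00218), and 980, 1100 and 872 in aPPs against 580 and 611 in cultured aPPs, a fall of -0.70 (adjusted p = 0.0125). In both tissues the cultured arrays lay below the uncultured ones. NES also rose in cultured aPPs, and KRT7 and KRT14 were higher in aPPs than in pPPs by 1.63 and 1.15 log2. All 5 calls in cultured pPPs held without the conflicting array, where EVPL had an adjusted p of 0.0499.

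Among 7 tested genes known as repressors of CDH1 in vertebrates, 2 rose in cultured pPPs together with CDH1 itself. SNAI2, known from neural crest, read 32.8, 26.7 and 49.4 in pPPs and 200 and 94.8 in cultured pPPs (1.59 log2; adjusted p = 0.00789), and FOXC2, a mesoderm gene, rose by 1.57 (adjusted p = 0.00429). SNAI1 rose in cultured aPPs, from 134, 116 and 164 to 578 and 503 (1.86 log2; adjusted p = 0.00151). ZEB2 was lower in cultured aPPs than in cultured pPPs (-2.48; adjusted p = 0.024) and FOXC2 was higher in aPPs than in pPPs (1.93).

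Of 11 tested regulators of epithelial genes, TFAP2B and TFAP2C rose in both cultures and GRHL3, a grainyhead factor of surface ectoderm, in cultured pPPs (1.87 log2; adjusted p = 0.00491). TFAP2C rose by 1.10 log2 in pPPs and 1.18 in aPPs. TFAP2B rose by 3.21 and 1.93, was lower in aPPs than in pPPs (-1.24) and lower in cultured aPPs than in cultured pPPs (-2.52), and GATA3 was higher in aPPs (1.39). Of 24 tested genes of cadherin processing and signalling, the proprotein convertase PCSK6 rose in both cultures, by 0.90 and 0.91 log2 (adjusted p = 0.00172 and 0.00151). The protease MMP2 rose in cultured pPPs (1.33; adjusted p = 0.0475), and the kinase ROCK1 fell in cultured aPPs (-0.75; adjusted p = 0.0477). Leaving out the conflicting array, MMP2 was not called (0.99; adjusted p = 0.234), and SNAI2, FOXC2, GRHL3, TFAP2B, TFAP2C, PCSK6 and ZEB2 were.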

How the data were processed

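RNA was extracted with an Absolutely RNA kit (Stratagene), amplified and labelled with NuGEN Ovation and Biotin Module reagents, and hybridised to Affymetrix chicken arrays. The authors calculated signals with MAS5, on a linear intensity scale of arbitrary units, with a Present, Marginal or Absent call for each probe set (MAS5 version: not given in the sources used here). From the annotated table, 12 columns were used for no value, namely its 10 columns of signals and the calls of 2 arrays that carry 1 name, apart from the check of that name. Array medians ranged from 6.2 to 21.3, so signals were quantile normalized (limma 3.58.1, R 4.3.3). After an offset of 16 and log2, 4 group means were fitted to all arrays with an intensity trend, on 21591 of 38439 probe sets, with Benjamini-Hochberg adjustment across them at 0.05. The number of arrays limits the precision. The procedure was tested on simulated data.

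The genes and lists were chosen with earlier results of these data known. Named genes were those called in any comparison, fixed classical members of each class, called partners (up to 6 per list and comparison) and the 3 genes closest to CDH1 and CDH2. The labels do not say whether set numbers pair aPPs with pPPs. Correlations of departures from group means between arrays of the same number were 0.439, 0.182 and 0.226, taken from the data. Arrays of unlike number were not compared in this way. The main test left the set out. With the set as a block in limma, the adjusted p between aPPs and pPPs was 0.00115 for CDH11 and 0.0861 for CDH1. Alternatives covered offset, scaling, filter, trend, set as a block, array weights, arrays compared, arrays left out and other probe sets. No sequences or coordinates were used here.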

Additional observations from a re-analysis of the deposited data

How the results depend on the processing

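PCDH10 was called in both cultures under each of 19 alternatives, over a range of 1.15 to 4.24 log2 in pPPs and 0.70 to 2.88 in aPPs. The alternative that required Present calls on at least 4 arrays left it untested. PCDH10 has 1 probe set, so the check with a second probe set could not be made for it. All these alternatives but the one without a detection filter kept the filter that PCDH10 met only through cultured tissue. The other calls were less stable, and where a call was lost the cause was not tested. Without normalization the number of junction genes called was 0 between aPPs and pPPs, 1 in cultured pPPs and 1 in cultured aPPs. This setting shifted the median of all probe sets by -0.20 log2 in cultured pPPs and -0.19 in cultured aPPs. Calls over all probe sets fell as well. Between aPPs and pPPs they were 42 higher and 16 lower, against 254 and 154 in the main test. In cultured pPPs they were 10 and 8, against 483 and 366. In cultured aPPs they were 14 and 20, against 454 and 347. The loss of calls was therefore not particular to junction genes. Of the settings below, such calls are given for trimmed-mean scaling only. With second probe sets, measured for 18 genes, the numbers were 0, 1 (CDH11, lower) and 1 (CDH3, lower). Among genes with an unadjusted p under 0.05, these probe sets reversed CDH2 (0.16) and CDH8 (-0.51) in cultured pPPs and CTNND1 (0.23), CDH8 (-0.52) and TJP1 (-0.070) in cultured aPPs. Among the others in cultured pPPs they reversed TJP1 (-0.19), CTNNA2 (-0.32), JUP (-0.13) and PCDH17 (0.03), none called with either probe set. Present calls on at least 4 arrays gave 1 in cultured pPPs, and array weights gave 7 in cultured aPPs.

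Leaving out 1 array at a time gave 0 to 2 calls between aPPs and pPPs, 1 to 4 in cultured pPPs and 1 to 5 in cultured aPPs. CDH1 joined CDH11 without pPP set 1, and CDH2 and NCAM1 were added in cultured aPPs without pPP set 3. Under a replicate block by set number, 5 genes were called in cultured aPPs, CDH2 and CLDN1 being added. Between those groups the arrays share only a number (correlations -0.00805 and 0.0772), and the block changed no other count. DSP was also not called with an offset of 4 or trimmed-mean scaling (adjusted p = 0.0599 and 0.0524), and CTNND1 not without the intensity trend (0.0668). The split of all calls in cultured aPPs was 454 higher and 347 lower, and 422 and 537 with trimmed-mean scaling. In cultured pPPs it was 483 and 366, and 440 and 449 with that scaling. The comparison of the 2 cultured groups and the difference in response gave 0 calls under every alternative run. Detection calls limit the rest: the 23 untested genes had no Present call or 1, and their changes were not tested. Each cultured group had 1 array with calls, so a gene Present in only 1 cultured group could not reach the 2 calls needed. CDH6, CLDN8 and PCDH9 were such genes, each Present only in cultured pPPs.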
